A study of Homo sapiens with 9 samples.

Results

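The open chromatin around 5 genes was described here: the TCF/LEF family genes TCF7, LEF1, TCF7L1 and TCF7L2, and SATB1. Peaks of 4 FAIRE-seq libraries of Jurkat cells were merged where they overlapped or touched, and a merged region was taken for a gene when it lay in the gene body or within 50 kb of its transcription start site (TSS). This gave 44 of 40703 regions, with 11 at TCF7, 13 at LEF1, 3 at TCF7L1, 8 at TCF7L2 and 9 at SATB1. Formaldehyde-assisted isolation of regulatory elements (FAIRE) recovers DNA that is depleted of nucleosomes, and Jurkat (clone E6-1) is a human T cell leukaemia line, so that all libraries describe 1 clone of transformed cells. According to the labels, the lists come from non-stimulated cells (NS) and from cells that were stimulated for 4 h with the phorbol ester PMA and calcium ionophore, washed, and rested for 1 day (SW, stimulus withdrawal). Each state was pre-treated either with DMSO, the vehicle, or with 15 µM rottlerin, an inhibitor of protein kinase C, for 1 h. Every peak was called against a single total input made from a mixture of unstimulated and stimulated cells.

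The labels and the study's methods differ on what these 4 lists are, and the methods also give a shorter stimulation than the labels. By the labels 2 of them are DMSO and 2 are rottlerin samples, whereas the methods describe peak calling and merging on the DMSO samples alone, which comprised NS, ST (stimulated), SW and RS (re-stimulated) cells. With every peak merged, the 4 lists gave 40731 regions, of which 28 on other sequences than the autosomes, X and Y were not used. Both totals are also those of the methods for the DMSO samples. An NS DMSO sample is named in both sources, and the list with this label served as the reference. Whether that list comes from this sample could not be checked. The other lists are called here by their labels only, as SW DMSO, NS rottlerin and SW rottlerin, and nothing is drawn from them about rottlerin, withdrawal or re-stimulation. In the order of these labels, NS DMSO first, the lists held 18977, 20132, 23835 and 30409 peaks covering 6.69, 7.12, 8.51 and 11.5 Mb, with a median fold enrichment of 4.05, 4.03, 4.08 and 4.03. Each label has 1 library, which leaves no replicate error to compare with, so lists were not tested against each other. Sequencing depth is unknown from peak lists, and a region without a peak is therefore a region that was not called, not one shown to be closed. Of 7 T cell markers, CD3D, CD3E, LCK and CD28 had a peak within 1 kb of a TSS in all 4 lists, CD3G in NS DMSO only, CD5 in SW rottlerin only and CD2 in none. No list had one at any of 4 myeloid or 3 erythroid markers. Of the B cell markers, PAX5 had a peak in the NS DMSO and SW rottlerin lists.

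The TCF/LEF proteins share an HMG-box DNA-binding domain. At Wnt target genes they recruit β-catenin as a co-activator or, without it, Groucho/TLE co-repressors. TCF-1, the product of TCF7, and LEF1 are required for T cell development in the thymus and are high in naïve and central memory T cells, whereas TCF7L1 and TCF7L2 are best known from stem cells and epithelia. TCF7 is also known for alternative promoters that give short forms without the β-catenin binding domain. SATB1 is a nuclear protein that binds AT-rich DNA and organises chromatin loops in thymocytes and T cells.

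In the NS DMSO list 26 of the 44 regions had a peak, which was 59.1% (95% Wilson interval 44.4–72.3%) against 46.5% of all regions. The share was 50.0% (35.8–64.2%) in the SW DMSO list, 45.5% (31.7–59.9%) in the NS rottlerin list and 65.9% (51.1–78.1%) in the SW rottlerin list, where 49.3%, 58.4% and 74.5% of all regions had a peak. The other 18 regions, 40.9% (27.7–55.6%), had no NS DMSO peak, against 53.5% of all regions. All these intervals hold the share of all regions. They cover counting error only, and neighbouring regions of a gene are not independent.

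The distribution over the lists differed most from that of all regions among those called in the NS DMSO list alone. There were 9 of these, 20.5% (11.2–34.5%) of the 44 regions, against 7.83% of all regions, and they lay at LEF1 (4), TCF7 (3) and SATB1 (2). Among the 26 regions with an NS DMSO peak, 34.6% (19.4–53.8%) had no peak in another list, where 16.8% of all such regions had none. Their fold enrichment was 2.71 to 4.53, with a median of 3.31 against 3.57 over all regions of this kind, and their scores were 13 to 58, where the median of the NS DMSO list was 57. When the nearest coding TSS had to be that of the gene itself, 4 of 29 regions (13.8%, 5.50–30.6%) were in the NS DMSO list alone, and the interval then held the 7.18% of regions chosen in the same way for all coding genes. In these files a score of 10 stands for 1 unit of −log10 of the q-value.

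All 4 lists had a peak in 11 regions, 25.0% (14.6–39.4%), close to the 26.6% of all regions. When a list had to cover at least 50% of a region, the shares were 11.4% (4.95–24.0%) and 18.6%. Peaks in every list but NS DMSO were found in 2 regions, 4.55% (1.26–15.1%) against 7.08%. The pair of SW-labelled lists and no other list had a peak in 4 regions, 9.09% (3.59–21.2%) against 6.26%, and the SW rottlerin list alone had one in 7, 15.9% (7.93–29.4%) against 18.2%. None of the 44 regions was in the NS rottlerin list alone, a pattern held by 8.42% of all regions.

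**Figure D1:**
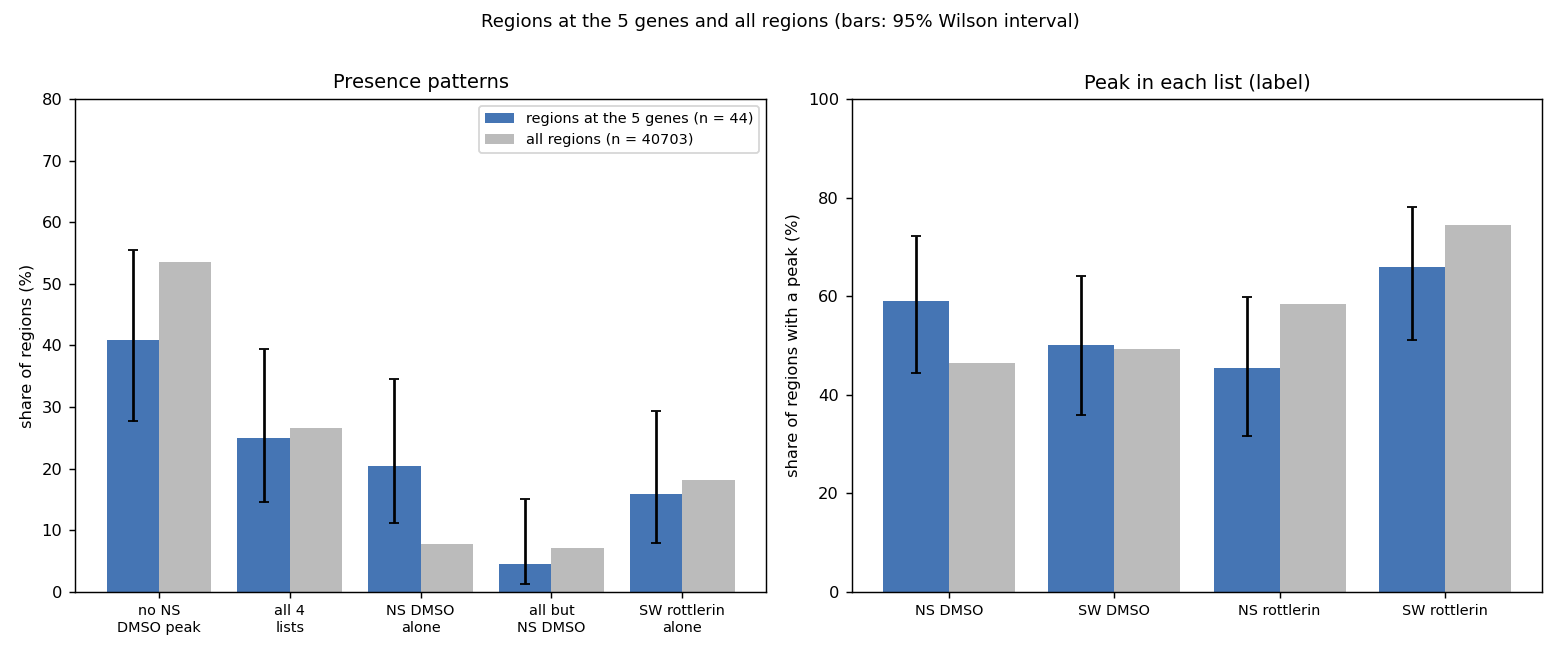
Share of regions (%) with each pattern of peaks over the lists (left) and with a peak in each list, by its label (right), for the 44 regions at the 5 genes (blue, with 95% Wilson intervals) and for all 40703 regions (grey). Of the patterns drawn, the blue bar stands clear of the grey one, interval included, for regions in the NS DMSO list alone, at 20.5% against 7.83%. The interval held the share of all such regions when the nearest coding TSS had to be that of the gene. Neighbouring regions of a gene are not independent.

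Of the 44 regions, 5 had their mid-point within 1 kb of the TSS of their gene, taken as the 5′ end of the gene. This was 11.4% (4.95–24.0%). Of all regions, 18.6% lay as near to the 5′ end of a coding gene, a share that the interval holds. The comparison was also repeated over regions more than 1 kb from the 5′ end of any coding gene. Of these, the 5 genes had 39, with 16 (41.0%, 27.1–56.6%) lacking an NS DMSO peak, 9 (23.1%, 12.6–38.3%) in all 4 lists and 9 in the NS DMSO list alone. Over all regions at such distances the shares were 59.9%, 17.8% and 9.3%. The interval for regions without an NS DMSO peak then lay below the share of all regions at such distances, and that for regions in the NS DMSO list alone lay above it. These shares are linked, because a region in the NS DMSO list alone has an NS DMSO peak. Neighbouring regions of a gene are not independent. Among the 44 regions the interval for those without an NS DMSO peak, 27.7–55.6%, held the 53.5% of all regions. Regions at inner transcript starts stayed in this set, among them those at LEF1, TCF7L2 and SATB1 described below. By position, 34 of the regions were inside their gene, 27 of them in introns of the canonical transcript, and 3 overlapped coding sequence. For 15 regions the nearest coding TSS was that of another gene (SKP1, HADH, TGOLN2 or TBC1D5). The regions were 161 to 1311 bp wide, with a median of 368 bp against 294 bp for all regions, and their median GC content of 45.5% was near the 46.3% of all regions.

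**Figure D2:**
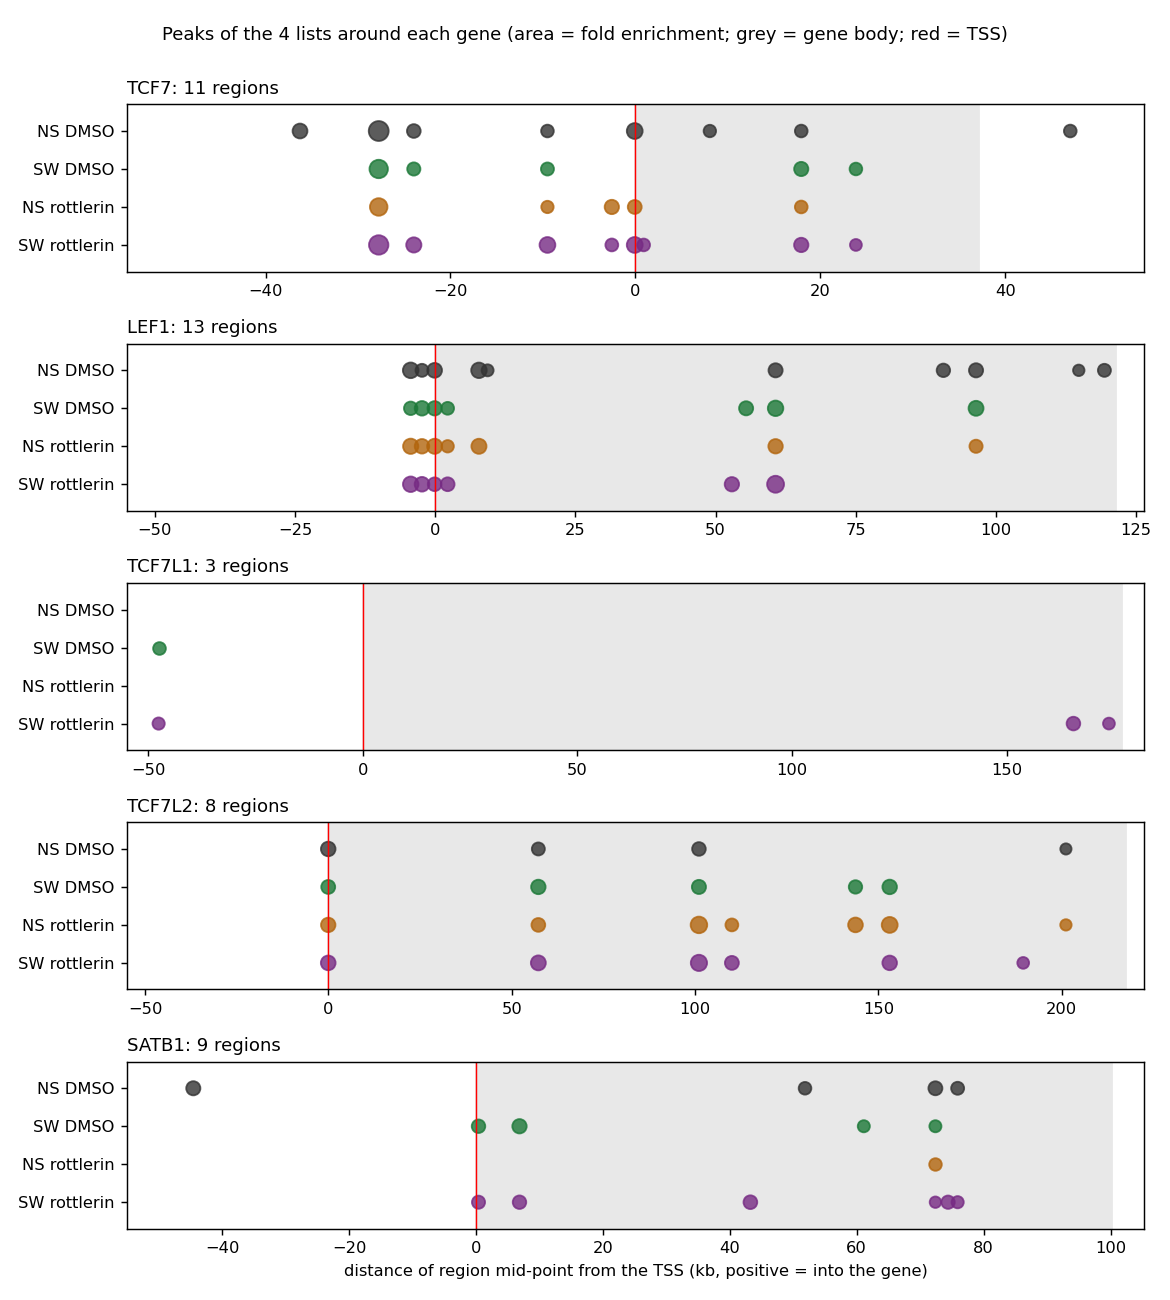
Position of each peak relative to the TSS of its gene (kb, positive into the gene) in the 4 lists, by label, with the area of a point in proportion to fold enrichment, the gene body in grey and the TSS in red. Points are drawn at the mid-point of the merged region. Peaks in all lists stand near the TSS of LEF1 and TCF7L2, and TCF7L1 has none near its TSS in any list. The region at the TSS of SATB1, which also holds that of TBC1D5, has peaks in both SW-labelled lists only.

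The DNA of these regions is shown for 2 reasons: the sequence that TCF/LEF proteins themselves bind, and the E-box. Positions are on GRCh37 (hg19), the + strand is printed 5′ to 3′, and each stretch is the central 300 bp of its region. The first set holds a match to the TCF/LEF letters CTTTGAT or CTTTGTT on either strand, which is in capitals. It comprises the region with the highest fold enrichment, at TCF7, a region at TCF7L2 with peaks in all 4 lists, the upstream region of TCF7L1, and 1 at SATB1 that was in the SW rottlerin list alone and was chosen after its values were seen.
TCF7, 27.8 kb upstream (chr5:133422461-133422760): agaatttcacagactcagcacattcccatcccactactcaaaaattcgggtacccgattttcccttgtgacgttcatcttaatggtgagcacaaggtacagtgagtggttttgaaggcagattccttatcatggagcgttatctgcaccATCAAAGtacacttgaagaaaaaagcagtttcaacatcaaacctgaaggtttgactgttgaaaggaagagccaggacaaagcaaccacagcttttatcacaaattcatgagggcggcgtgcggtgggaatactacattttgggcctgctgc
TCF7L2, 57.2 kb inside (chr10:114767101-114767400): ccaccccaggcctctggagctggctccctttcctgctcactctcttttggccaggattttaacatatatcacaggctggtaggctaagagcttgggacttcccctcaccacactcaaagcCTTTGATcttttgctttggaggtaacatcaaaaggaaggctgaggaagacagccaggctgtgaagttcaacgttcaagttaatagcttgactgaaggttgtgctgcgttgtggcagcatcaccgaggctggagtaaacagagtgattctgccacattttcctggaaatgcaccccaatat
TCF7L1, 47.6 kb upstream (chr2:85312764-85313063): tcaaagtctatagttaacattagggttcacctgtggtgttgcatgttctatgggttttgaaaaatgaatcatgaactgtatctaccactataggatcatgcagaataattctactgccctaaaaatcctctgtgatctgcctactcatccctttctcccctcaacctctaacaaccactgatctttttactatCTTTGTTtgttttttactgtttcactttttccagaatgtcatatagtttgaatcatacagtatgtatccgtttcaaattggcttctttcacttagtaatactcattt
SATB1, 43.2 kb inside (chr3:18443723-18444022): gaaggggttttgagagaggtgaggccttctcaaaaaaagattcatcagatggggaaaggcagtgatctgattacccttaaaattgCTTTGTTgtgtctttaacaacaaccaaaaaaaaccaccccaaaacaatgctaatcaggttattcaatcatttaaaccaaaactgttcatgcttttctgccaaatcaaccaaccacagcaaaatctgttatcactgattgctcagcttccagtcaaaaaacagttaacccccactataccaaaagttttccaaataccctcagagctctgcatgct

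The second set shows regions that were called in the NS DMSO list alone, at TCF7, LEF1 and SATB1. Capitals mark the E-box letters CACCTG or CAGCTG, on either strand, which E proteins such as TCF3 (E2A) and TCF12 bind. There are 4 matches in the TCF7 region, 2 in that of SATB1 and 1 in that of LEF1.
TCF7, 36.3 kb upstream (chr5:133413949-133414248): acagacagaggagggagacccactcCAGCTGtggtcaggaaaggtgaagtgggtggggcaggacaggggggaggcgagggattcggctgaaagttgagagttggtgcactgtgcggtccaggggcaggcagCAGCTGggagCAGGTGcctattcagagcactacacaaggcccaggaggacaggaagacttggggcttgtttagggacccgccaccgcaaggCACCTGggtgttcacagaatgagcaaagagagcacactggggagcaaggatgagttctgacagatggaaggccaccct
LEF1, 119 kb inside (chr4:108970595-108970894): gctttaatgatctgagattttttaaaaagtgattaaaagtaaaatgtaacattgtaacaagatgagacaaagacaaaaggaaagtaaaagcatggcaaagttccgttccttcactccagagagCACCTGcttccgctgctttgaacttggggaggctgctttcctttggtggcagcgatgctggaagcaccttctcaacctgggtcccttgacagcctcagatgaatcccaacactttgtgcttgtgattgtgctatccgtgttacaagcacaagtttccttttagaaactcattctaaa
SATB1, 44.5 kb upstream (chr3:18531497-18531796): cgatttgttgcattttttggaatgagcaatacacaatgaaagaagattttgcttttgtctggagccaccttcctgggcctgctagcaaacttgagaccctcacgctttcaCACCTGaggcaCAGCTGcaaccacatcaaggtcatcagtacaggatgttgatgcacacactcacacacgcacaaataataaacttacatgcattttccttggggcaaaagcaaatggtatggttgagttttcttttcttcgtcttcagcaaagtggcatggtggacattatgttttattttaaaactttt

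The TCF/LEF letters were found in the central 300 bp of 10 of the 44 regions, 22.7% (12.8–37.0%), against 14.0% of all regions. Of these, 4 were at TCF7, 3 at SATB1, 2 at TCF7L2 and 1 at TCF7L1, and none of the 13 LEF1 regions had them in this window. The E-box letters were in 17 regions, 38.6% (25.7–53.4%), against 34.2% of all regions. Among the regions in the NS DMSO list alone, 5 of 9 had an E-box, where 51.9% of all regions of that kind did. GATA letters (AGATAA or TGATAA) were the only ones of the 9 families whose share at these genes was lower by more than 10 percentage points, at 20.5% (11.2–34.5%) against 31.5%, and the interval holds the latter. AP1 letters (TGANTCA) were in 11.4% against 17.9%, ETS (CCGGAAG or CAGGAAG) in 27.3% against 24.0%, RUNX (TGTGGT) in 38.6% against 32.8% and NFAT (TGGAAA) in 34.1% against 27.9%. NFκB letters (GGNNTTTCC or GGNNTTCCC) were in 15.9% against 10.6% and EGR letters (GCGNGGGCG) in 2.27% against 3.89%. Both strands were searched for every family, and matches of different families could overlap. A match of these letters does not show that a protein bound there.

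TCF7 (ENSG00000081059.20_12; chr5:133450372-133487556, + strand) had 11 regions over its 37.2 kb body and flanks, and 97.6% of 20163 coding genes had fewer. This was 11.0 regions per 100 kb of window, where the median coding gene had 2.12. It had 8 peaks in the NS DMSO list, 5 in the SW DMSO, 5 in the NS rottlerin and 8 in the SW rottlerin list. A block upstream of the gene, which takes in 5 regions between 36.3 and 2.55 kb from the TSS, held the most enriched one of all 5 genes.

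That region, 27.8 kb upstream (chr5:133422063-133423158), had a fold enrichment over total input of 8.12 in the NS DMSO list, 6.96 in SW DMSO, 6.31 in NS rottlerin and 7.73 in SW rottlerin. Of all regions, 99.3% had a lower maximum. The TCF/LEF letters printed above lie in it. A region 9.51 kb upstream (chr5:133440468-133441255) was much lower in 3 of the lists, with 3.31, 3.49 and 3.13, and reached 5.13 in the SW rottlerin list. Its ratio of 1.55 between the SW rottlerin and NS DMSO lists was the highest at the 5 genes, and 96.5% of the regions shared by these lists had a lower ratio.

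The TSS region of TCF7 (chr5:133450178-133450423) covers the start of transcripts TCF7-201 and TCF7-204 and part of exon 1. Its fold enrichment was 5.14 in the NS DMSO, 3.96 in the NS rottlerin and 5.17 in the SW rottlerin list, and it was not called in the SW DMSO list. A second region 0.895 kb into the gene, at chr5:133451098-133451437 in intron 2 of the canonical transcript, covers the starts of 7 other transcripts. It was called in the SW rottlerin list alone, at 3.33. Hence SW rottlerin, the longest of the 4 lists, was the only one with a peak in both of these regions. The peak in the second region was weak, with a score of 31 where the median of that list was 53.

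The NS DMSO list alone had 3 regions at TCF7. That 36.3 kb upstream (chr5:133413971-133414226), printed above with its E-boxes, had the highest fold enrichment of these, 4.53. The others were in intron 3, 8.05 kb from the TSS (chr5:133458342-133458508), at 3.19, and 47.0 kb from the TSS inside the neighbouring gene SKP1 (chr5:133497180-133497636), at 3.31. As few as 120 coding genes, 0.595%, had 3 or more such regions, although TCF7 also has more regions than most. The 4 remaining regions, 24.0 and 2.55 kb upstream and 17.9 and 23.9 kb inside the gene, had values of 2.90 to 4.74, and that at 17.9 kb was in all 4 lists.

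LEF1 (ENSG00000138795.10_13; chr4:108968701-109090112, − strand) had 13 regions, more than 98.7% of coding genes, and 11 of them lay in its 121 kb body. Peaks numbered 10 in the NS DMSO list and 7, 7 and 6 in the SW DMSO, NS rottlerin and SW rottlerin lists. It was the only one of the 5 genes with more peaks in the NS DMSO list, the shortest of the 4, than in each other list.

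All 4 lists had peaks at the start of LEF1. The TSS region (chr4:109089844-109090584), which covers the starts of LEF1-201 and LEF1-202 and also overlaps the antisense gene LEF1-AS1, had a fold enrichment of 4.46, 4.21, 4.67 and 3.86 in the NS DMSO, SW DMSO, NS rottlerin and SW rottlerin lists. A region 4.37 kb upstream (chr4:109094363-109094606), in LEF1-AS1, had 5.02, 3.72, 4.79 and 4.94 in the same order. Beside these, a region 2.22 kb into the gene (chr4:109087354-109088437), with the starts of LEF1-216, LEF1-218 and LEF1-221, was in every list but NS DMSO, at 3.37, 3.18 and 3.91. The nearest NS DMSO peak was 1479 bp away from it.

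Within the gene, intron 3 held the region with the highest value of LEF1, 60.7 kb from the TSS (chr4:109029214-109029588). It had 4.10 in the NS DMSO, 4.93 in the SW DMSO, 4.27 in the NS rottlerin and 5.90 in the SW rottlerin list, so that the SW rottlerin value was 1.44 times the NS DMSO value, and 93.8% of shared regions had a lower ratio. A region 7.80 kb inside (chr4:109082181-109082442), also in intron 3, was in the 2 NS-labelled lists only, at 4.93 in NS DMSO and 4.66 in NS rottlerin.

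The 4 LEF1 regions in the NS DMSO list alone were spread over the gene. They lay in intron 3 (chr4:109080432-109081106, 2.97), in coding exon 8 (chr4:108999343-108999589, 3.72) and at 2 places in intron 11, toward the 3′ end (chr4:108975139-108975500, 2.71, and chr4:108970651-108970838, 3.50). Of coding genes, 37, or 0.184%, had 4 or more such regions, although LEF1 also has more regions than most. As a share they were 30.8% (12.7–57.6%) of its 13 regions. Those with a fold enrichment of 2.71 and 2.97 had low scores, 14 and 15. The 4 regions not yet named had a fold enrichment of 3.48 to 4.60. They comprised 1 upstream in LEF1-AS1 that was in all 4 lists, 1 in intron 8 that lacked only an SW rottlerin peak, and 1 each in the SW DMSO and the SW rottlerin list alone, in intron 3.

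**Figure D3:**
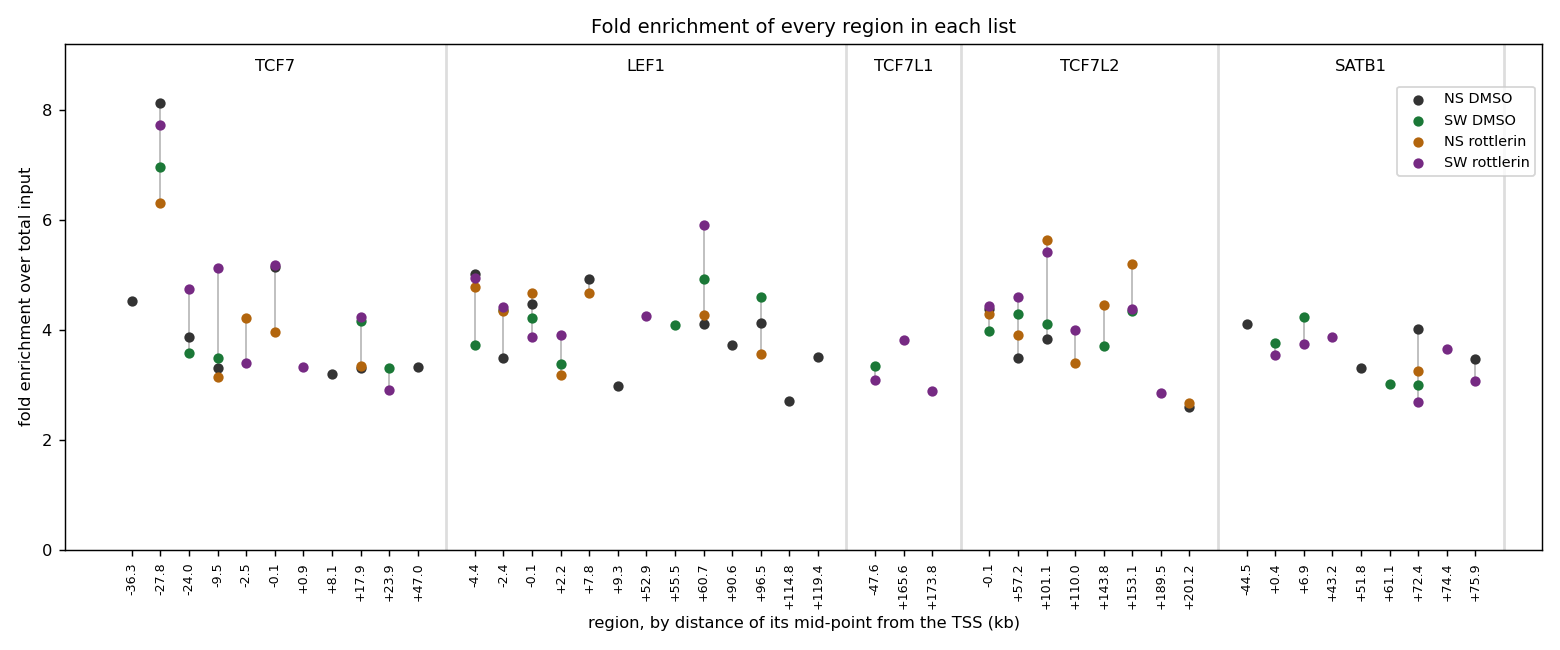
Fold enrichment over total input of each of the 44 regions (points, one colour per list by its label; a line joins the values of a region), ordered by distance of the mid-point from the TSS (kb, positive into the gene). The TCF7 region 27.8 kb upstream stands above all others in every list, at 6.31 to 8.12, and most values lie between 3 and 5.

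TCF7L1 (ENSG00000152284.5_7; chr2:85360515-85537510, + strand) differed from the other family members in having no region near its TSS. It had 3 regions over 177 kb and its flanks, or 1.32 per 100 kb, and 44.4% of coding genes had fewer. None had a peak in either of the NS-labelled lists. The upstream region (chr2:85312799-85313027), 47488 bp from the TSS at its nearest edge, had 3.34 in the SW DMSO and 3.08 in the SW rottlerin list. Those in intron 4 (chr2:85526007-85526167) and intron 10 (chr2:85534275-85534447) were in the SW rottlerin list alone, at 3.82 and 2.89. All were weak, with scores of 12 to 32. Of 11202 coding genes with 3 or more regions, 555 (4.95%) likewise had no NS DMSO peak in any of them. The SW rottlerin peak of the upstream region had a q-value above 0.05.

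TCF7L2 (ENSG00000148737.18_18; chr10:114710006-114927437, + strand) had 8 regions, all in its 217 kb body, and 91.7% of coding genes had fewer. It had 4, 5, 7 and 6 peaks in the NS DMSO, SW DMSO, NS rottlerin and SW rottlerin lists. None of the 8 was in the NS DMSO list alone, and the interval of 0–32.4% holds the 7.83% of all regions. The TSS region (chr10:114709771-114710092), with the starts of 5 transcripts, had nearly even values of 4.37, 3.98, 4.29 and 4.44 in this order.

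The other regions of TCF7L2 that were in all 4 lists had their lowest value in the NS DMSO list. One in intron 4, 57.2 kb inside (chr10:114767125-114767375), which holds the TCF/LEF letters printed above, had 3.48, 4.30, 3.90 and 4.59. One in intron 5, 101 kb inside (chr10:114810692-114811423), had 3.82, 4.11, 5.64 and 5.42, and its ratio of 1.48 between NS rottlerin and NS DMSO was above that of 96.4% of shared regions.

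Intron 5 also held the region in every list but NS DMSO. It had 4.34 in the SW DMSO, 5.20 in the NS rottlerin and 4.37 in the SW rottlerin list. A region over exons 9 and 10 (chr10:114910747-114911588), with the start of TCF7L2-207, was in the NS-labelled lists only and had the lowest fold enrichment of the 44 regions, 2.59 and 2.66. The other 3 regions lacked an NS DMSO peak, lay in intron 5, and had values of 2.86 to 4.45.

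SATB1 (ENSG00000182568.18_17; chr3:18386869-18487113, − strand) had 9 regions, more than 94.6% of coding genes, of which 8 lay in its 100 kb body. Its peaks numbered 4 in the NS DMSO, 4 in the SW DMSO, 1 in the NS rottlerin and 6 in the SW rottlerin list. The gene record of the neighbour TBC1D5 also covers the body of SATB1, so regions there cannot be assigned to SATB1 alone.

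Near the start of SATB1, peaks were found in the SW-labelled lists only. The TSS region (chr3:18486150-18487271), with the starts of 4 transcripts and overlap with SATB1-AS1, had 3.75 in the SW DMSO and 3.54 in the SW rottlerin list, and a region 6.86 kb inside (chr3:18480106-18480397), with the starts of SATB1-202 and SATB1-209, had 4.23 and 3.74. The nearest NS DMSO peaks were 44290 and 44532 bp away. The TSS region also holds the TSS of the neighbour TBC1D5, 401 bp from its mid-point. Its SW DMSO peak ended before the SATB1 gene TSS at 18487113, which the SW rottlerin peak covered. The region can therefore not be assigned to the SATB1 promoter alone. The centre of the TSS region was a CpG-rich sequence of 82.3% GC with 49 CpG. Of coding genes, 233, with SATB1 among them, had a region within 1 kb of the TSS in both SW-labelled lists and in neither NS-labelled one. The start of the canonical transcript, 20.3 kb inside the gene, had no region within 13275 bp.

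The only SATB1 region in all 4 lists was in intron 9 (chr3:18414401-18415038), toward the 3′ end, and was highest in the NS DMSO list, at 4.01 against 3.00, 3.26 and 2.69. Its ratio of 0.671 between SW rottlerin and NS DMSO was the lowest at the 5 genes, and as few as 1.60% of shared regions had a lower one. The regions in the NS DMSO list alone were in intron 7 (chr3:18434954-18435574), at 3.30, and 44.5 kb upstream in SATB1-AS1 (chr3:18531561-18531732), at 4.10. The latter is printed above. The 4 other regions, in introns 5, 8 and 9, had values of 3.01 to 3.87, and 3 of them had no NS DMSO peak.

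Across the genes, 4 of 5 had a region within 1 kb of the TSS, as did 44.9% of coding genes. By list, TCF7, LEF1 and TCF7L2 had one in NS DMSO and in NS rottlerin, LEF1, TCF7L2 and SATB1 in SW DMSO, and all but TCF7L1 in SW rottlerin. The shares of coding genes with such a peak were 34.2% in NS DMSO, 38.5% in NS rottlerin, 35.4% in SW DMSO and 42.5% in SW rottlerin.

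Where a region had a peak in the NS DMSO list and in another, the fold enrichments were close. The median ratio to the NS DMSO value was 1.06 for SW DMSO (13 regions), 0.982 for NS rottlerin (15) and 1.12 for SW rottlerin (14), beside 0.980, 1.04 and 1.06 over all shared regions. The full range at the 5 genes was 0.741 to 1.25, 0.770 to 1.48 and 0.671 to 1.55, and from the 5th to the 95th percentile all shared regions spanned 0.727 to 1.33, 0.767 to 1.42 and 0.765 to 1.48. Only the regions named above at TCF7 (9.51 kb upstream), TCF7L2 (intron 5) and SATB1 (intron 9) fell outside these limits, each in a single list. These ratios divide mean enrichments of Broad peaks that can differ in length between lists.

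**Figure D4:**
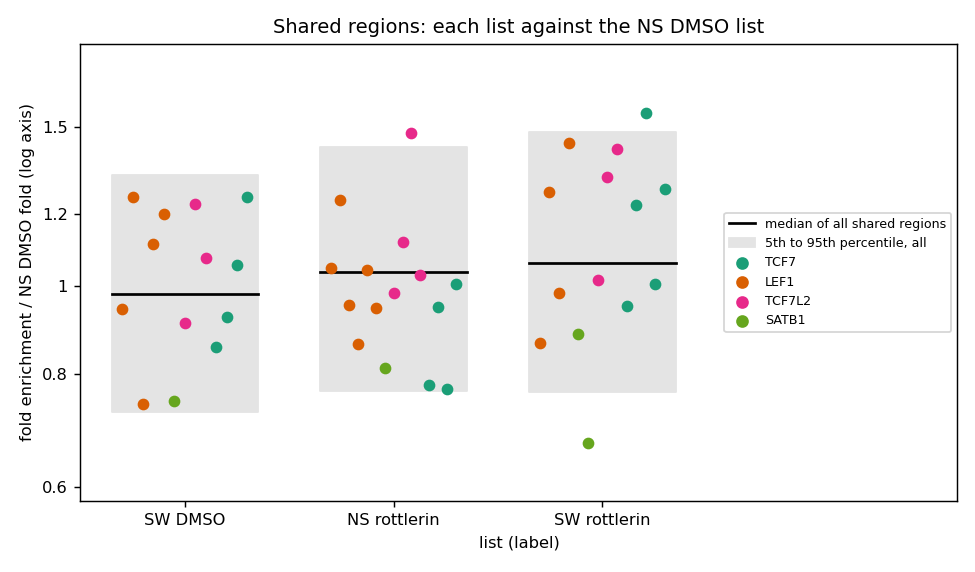
Ratio of the fold enrichment in each other list, by its label, to that in the NS DMSO list (log axis) for regions with both peaks, coloured by gene. The black line is the median and the grey band the range from the 5th to the 95th percentile of all shared regions, and 3 points lie outside the bands, at 1.48, 1.55 and 0.671.

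As a comparison, 17 genes of the same pathway were counted, chosen for their function: β-catenin and its relative plakoglobin (CTNNB1, JUP), the TLE co-repressors, the co-activators BCL9, BCL9L, PYGO1 and PYGO2, the inhibitor CTNNBIP1, the β-catenin destruction complex (AXIN1, AXIN2, APC, GSK3B) and the kinase NLK. They had 85 regions, TLE2 and TLE5 sharing theirs. No NS DMSO peak was called in 41 of these (48.2%, 37.9–58.7%), and 25 (29.4%) were in all 4 lists. The NS DMSO list alone had 2 (2.35%, 0.648–8.18%), at JUP and CTNNBIP1, and every list but NS DMSO also had 2, at CTNNB1 and TLE4. A peak within 1 kb of the TSS was present in all 4 lists at 8 of the genes and in no list at 6. The interval for the pathway regions in the NS DMSO list alone holds the 7.83% of all regions. At the 5 genes this share was 20.5%. It was 13.8% (5.50–30.6%), against 7.18%, when the nearest coding TSS had to be that of the gene.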

How the data were processed

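Jurkat cells in 8 conditions gave 1 FAIRE-seq library each, beside a total input library. Peak lists were used from 4 of these samples, and 5 samples were not analysed here. Reads had been trimmed by the authors with CutAdapt, aligned to Hg19 with Bowtie2 and freed of duplicates with Picard, before peaks were called sample by sample with MACS2 (Broad option, total input as control). The columns of each deposited list are the position, a score, a ratio (fold enrichment) and −log10 values of p and q. The highest q-value in a list was 0.0946 to 0.0983, above the cut-off of 0.05 in the methods, and all peaks were kept. Of 97 peaks at the 5 genes, 3 had a q-value above 0.05.

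Peaks were merged with a minimum overlap of 1 bp or by touching, and genes were taken from GENCODE release 44 on GRCh37. Sequences came from the GRCh37 genome. Letters were searched exactly, on both strands, in the central 300 bp. Shares have 95% Wilson intervals. The genes and lists were chosen with earlier results of these data known. All 5 genes are described. Regions are described singly when they hold a TSS of the gene, are in the NS DMSO list alone or in every list but it, or are among the 3 most enriched of their gene, and others by counts and ranges. Some genes and 1 sequence that these rules name are not reported here. A pathway gene is named when it has no region, or a region in the NS DMSO list alone or in every list but it. Alternatives were a narrower window, a q-value of at most 0.01, equal numbers of peaks per list, a list covering at least 50% of a region, the nearest coding TSS, and other search windows. Leaving out each of the 3 other lists, and a q-value of at most 0.05, were chosen after seeing the data. Merging and motif search were tested on made-up data. Of 2000 made-up regions 2000, and of 700 planted sequences 700, were recovered. The scripts ran on Python 3.11.15 with pandas 2.3.3, numpy 2.4.6, pysam 0.24.0, scipy 1.17.1 and matplotlib 3.10.9.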

Additional observations from a re-analysis of the deposited data

How the results depend on the processing

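Of 53 values computed under alternatives, 49 stayed within the interval, or within 1.5 times a count. With lists shortened to the same length, 1 region of 38 (2.63%) was in every list but NS DMSO, against 5.66% of all regions. When a list had to cover 50% of a region, 11.4% were in all 4 lists, against 18.6%. When the nearest coding TSS had to be that of the gene, 29 regions were left, 4 of them in the NS DMSO list alone (13.8%, 5.50–30.6%, against 7.18%). The share in the NS DMSO list alone was 15.8% (6 of 38, 7.44–30.4%) within the gene body or 10 kb of the TSS and 17.6% (6 of 34, 8.35–33.5%) in the gene body, where the same windows of all coding genes gave 7.20% and 7.09%, so that the first interval ended close to this value and held the 7.83% of all regions. It was 28.9% against 13.3% with equal lists, 17.1% (6 of 35, 8.10–32.7%) against 7.01% with a q-value of at most 0.01, and 21.4% (9 of 42) against 7.69% with one of at most 0.05. Without the SW DMSO, NS rottlerin and SW rottlerin list, the counts were 9 of 42, 11 of 44 and 10 of 37 (all regions 9.53, 10.8 and 11.6%). The share without an NS DMSO peak was between 29.7%, without the SW rottlerin list (all regions 43.3%), and 50.0%, with 50% cover (all regions 60.2%). The share with TCF/LEF letters was 15.8% (gene body or 10 kb of the TSS) to 27.3% (central 500 bp searched). The 14.0% of all regions belongs to the central 300 bp under the main settings, so it cannot be set beside these values. No paired analysis was possible because each label has 1 library.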

Other observations

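Genes whose regions were spread over the 4 lists most like those of each gene were found among 1677 coding genes with at least 8 regions (1676 for SATB1). The distance is 0 when each of the 15 patterns of presence has the same share of regions in both genes, and 1 when no pattern is shared. For TCF7 these were ABLIM1 (distance 0.176), MTURN (0.192), and NOS3 and TSPAN14 (both 0.227), with a median distance of 0.518 over all genes compared. LEF1 was nearest to SLC2A9 (0.169) and SRPK2 (0.192), with a median of 0.547. TCF7L2 was nearest to LEPROTL1 (0.125), DISP2 (0.208) and NTPCR (0.222), and SATB1 to CCDC33 and SYNE2 (both 0.208) and to GCNT4 and IPCEF1 (both 0.222). TCF7L1 has too few regions for this comparison.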
